A study of Rattus norvegicus with 6 samples.

Results

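The proteasome genes of rat liver were followed in 6 single-colour expression arrays. Genes were taken by symbol, as every named probe whose gene began with Psma, Psmb, Psmc, Psmd, Psme, Psmf or Psmg and a number, and the rule found 33 of the 9627 named genes. Of these, 31 encode subunits, activators or assembly factors of the proteasome. The other 2, Psmc3ip and Psme3ip1, are named for proteins that bind a proteasome component, and they are described apart. Each of the 33 genes had a single probe. A further 17 proteasome symbols of the reference annotation, among them Psmb5, Psmd14, Psmf1 and Psmg1, were not analysed here.

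The livers came from male Sprague Dawley rats, and all of them ate a diet labelled as 60% high-fat. In the tea group, 3 liver samples came from rats given 8730 dark tea, which is fermented by the fungus Eurotium cristatum, by stomach tube for 9 weeks. In the control group, 3 liver samples came from rats that received distilled water in the same way. Livers of rats fed the normal diet were not analysed here, so every value describes the fat-rich feeding. Whether the replicates were separate animals is not in the labels, so p-values cover the variation among these arrays, some of which may be technical.

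The proteasome is the large protease that degrades proteins marked with ubiquitin in the cytosol and nucleus. Its barrel, the core particle, has outer rings of alpha subunits that gate the entrance and inner rings of beta subunits, some of which carry the cutting sites. A regulatory particle caps the barrel, where a base with a ring of ATPases unfolds the substrate and a lid removes ubiquitin. Interferon induces replacement catalytic beta subunits, which form the immunoproteasome, and an alternative cap that aids the production of peptides for MHC class I. When proteasome activity falls, the transcription factor encoded by Nfe2l1 raises many subunit genes together.

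The profile of control replicate 1 was unlike the rest. Over 26419 probes it correlated with the others at a Pearson r of 0.884 to 0.899, against 0.945 to 0.972 among the other 5 arrays, so differences between tea and control are given with and without it. Median intensity lay between 87.1 and 95.9 over the arrays, and the number of arrays limits the precision. All 8 measured hepatocyte markers had a mean above the median of all probe means, which was 6.47 on the log2 scale. Of the 31 proteasome genes, 30 had a mean above that median, and the exception was Psmb6. Every value of the 31 genes, from 5.90 to 12.61, lay above the random-sequence control row, which read 5.05 to 5.40.

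No proteasome gene passed the correction for multiple tests in tea against control livers. By limma with Benjamini-Hochberg adjustment over all probes, the smallest adjusted p of the 31 genes was 0.949, where 1 of the 26419 probes passed, or 0.00379%. At an unadjusted p under 0.05, Psmb1 was lower with tea and 0 genes were higher, so that 1 of 31 genes, or 3.23%, was below this limit, against 4.23% of all probes, of which 1.97% were higher and 2.26% lower. The groups did not overlap for 2 of the 31 genes, Psmb1 lower and Psmc5 higher. That is 6.45%, against 10.4% of all probes, of which 4.87% were higher and 5.54% lower. These shares lay under those of the whole array, but 1 gene makes up 3.23% of the 31, so nothing is read from this. The median standard error of a log2 fold change was 0.35, and a p above the threshold does not show that the groups were alike.

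The direction of the smaller differences depended on single arrays, control replicate 1 among them. With all 6 arrays, 19 of the 31 genes had a lower mean with tea and 12 a higher one, at a median of -0.073 on the log2 scale, and 50.3% of all probes were lower. Without control replicate 1, 26 of the 31 were lower and 5 higher, with a median of -0.23, and 49.3% of all probes were lower. Among the 13209 probes with a mean above the median of all probe means, 44.9% were lower with all 6 arrays and 54.1% without control replicate 1. The brighter probes in general thus moved in the same direction. When tea replicate 3 was left out as well, 18 of the 31 were lower, with a median of -0.053. That choice was made after seeing the data. Of all probes 50.2% were then lower, and of the brighter ones 51.6%. The median of the 31 genes was 0.068 without tea replicate 3 alone and 0.031 without control replicate 3 alone. No gene passed the correction without control replicate 1 either, where the smallest adjusted p by limma was 0.848 and 6 probes of the array, 0.0227%, passed.

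**Figure D1:**
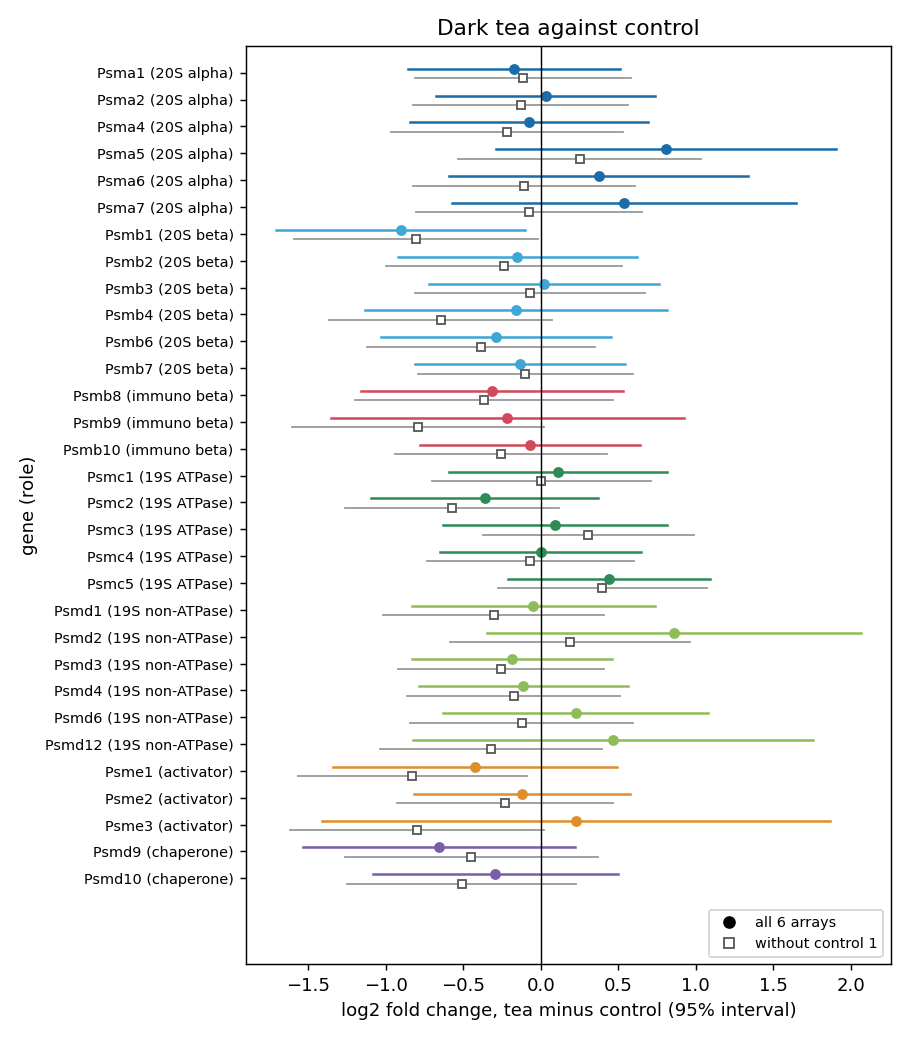
Log2 fold change of each of the 31 proteasome genes, tea minus control, with limma's 95% interval. Filled circles, coloured by role, use all 6 arrays, and open squares leave out control replicate 1. The interval for Psmb1 with all arrays, -1.71 to -0.098, lies below 0, and most open squares lie left of their circles.

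Many of the genes were low in the same livers, 1 in each group. Relative to each gene's own mean over the 6 arrays, the median deviation of the 31 genes was 0.26, 0.10 and -0.34 on the log2 scale in tea replicates 1, 2 and 3, and -0.27, 0.070 and 0.33 in control replicates 1, 2 and 3. Over all probes these median deviations lay between -0.038 and 0.013. Tea replicate 3 was the lowest of the 3 tea arrays for 27 of the 31 genes, against 36.5% of all probes and 46.0% of the probes with a mean above the median of all. Control replicate 1 was the lowest of the 3 controls for 22 of the 31, against 39.5% of all probes and 52.7% of the brighter ones. Control replicate 3 held the highest of the 6 values for 16 of the 31 genes, against 16.4% of all probes.

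**Figure D2:**
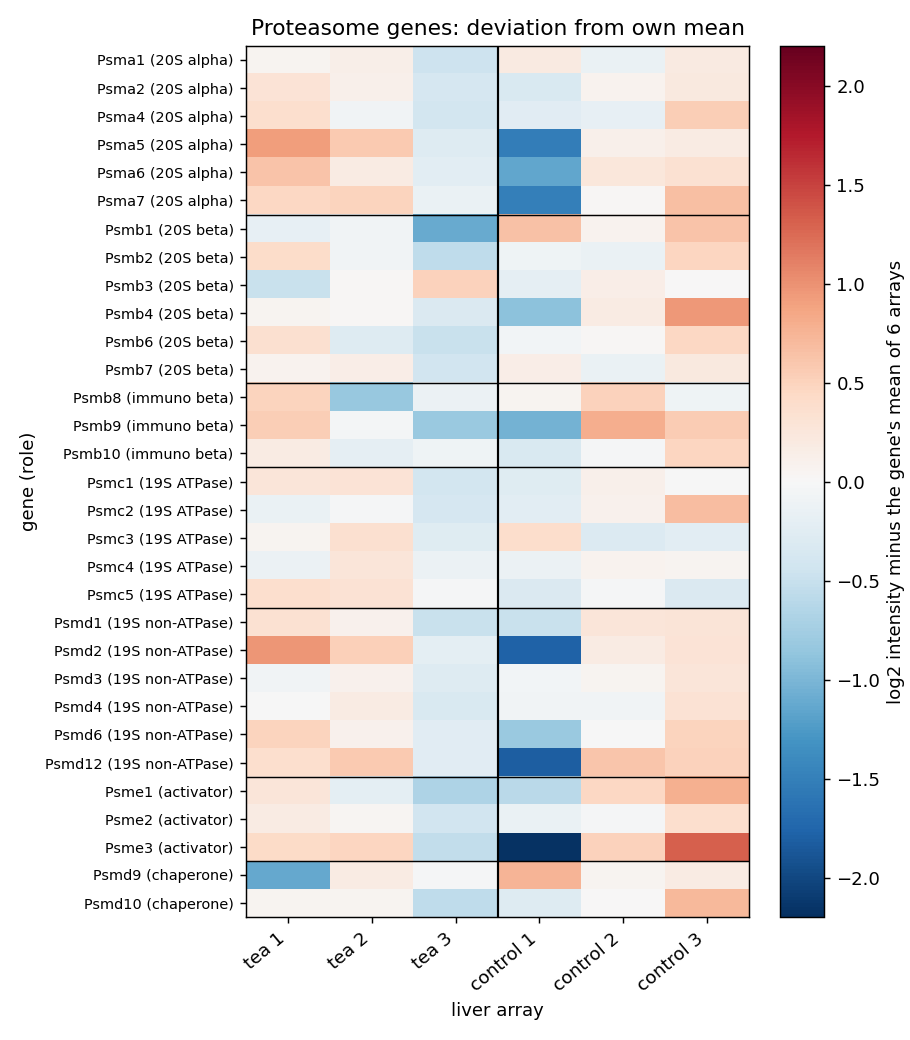
Log2 intensity of 31 proteasome genes, grouped by role, in 3 tea and 3 control livers, as the deviation from the gene's own mean over the 6 arrays (red higher, blue lower). Tea replicate 3 is low for most genes, and the deviation in control replicate 1 is -1.77 for Psmd2, -1.81 for Psmd12 and -2.17 for Psme3.

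In control replicate 1 the genes were spread widely, from -2.60 for Psme3 to 0.89 for Psmd9 relative to the mean of the other 5 arrays. In that array 5 genes lay more than 1 on the log2 scale below each of the other 5 arrays, namely Psma5, Psma7, Psmd2, Psmd12 and Psme3. That is 16.1% of the 31 genes, against 5.16% of all probes and 9.61% of the brighter ones. These 5 genes were picked out after their values were seen. Psmb1, Psmc3 and Psmd9 had their highest value in the same array. In tea replicate 3 the distance from the mean of the other 2 tea arrays had a median of -0.55 over the 31 genes, and the distances ran from -1.07 for Psmb9 to 0.74 for Psmb3.

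**Figure D3:**
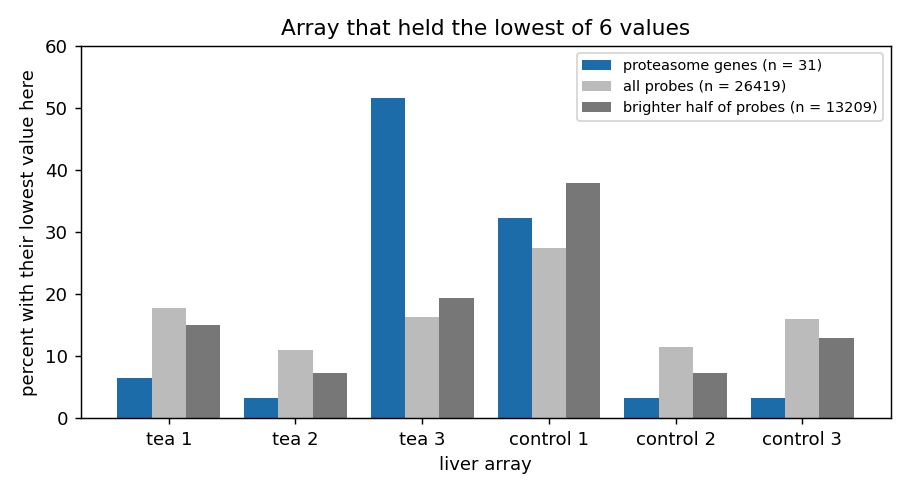
Percent of features whose lowest of 6 values fell in each array, for the 31 proteasome genes, all 26419 probes and the 13209 probes with a mean above the median of all probe means. Tea replicate 3 held the lowest value of 51.6% of the proteasome genes and of 16.4% of all probes.

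The Kupffer cell list was low in the low tea array, and the other marker lists did not share this as a whole. All 8 measured markers of Kupffer cells and macrophages, the resident phagocytes of liver, were lowest among the tea arrays in tea replicate 3. Their summed intensity ranged from 2531 to 5386 in tea livers and from 3415 to 6191 in control livers, with control replicate 3 at the top. Of the 7 measured lymphocyte and NK cell markers, 3 had a mean above the median of all probe means, 2 were lowest among the tea arrays in that replicate, and 4 had their lowest of 6 values in control replicate 1. Their summed intensity was 1057, 1407 and 1660 in tea replicates 1, 2 and 3, so that it was highest in that replicate, and from 724 to 977 in control livers. Gzmb, which encodes granzyme B of cytotoxic lymphocytes, carried this difference. It read 8.95, 9.75 and 10.21 in tea livers and 8.26, 8.43 and 8.35 in control livers, a log2 fold change of 1.29 ± 0.36 (SE), or 1.24 without control replicate 1, with an unadjusted p of 0.00474 and an adjusted p of 0.949 by limma. The sums of the other 6 markers overlapped, at 562, 547 and 475 in tea livers and 442, 631 and 397 in control livers. Dcn, which encodes decorin and stands among 5 measured stellate cell markers, was the other marker with an unadjusted p under 0.05 with all arrays. Its log2 fold change was 1.33 ± 0.38 (SE), or 1.52 without control replicate 1, with an adjusted p of 0.949 by limma. The same limit was met by 4.23% of all probes, and by no marker of the other cell type lists. Without control replicate 1 Lrat, a stellate cell marker of vitamin A storage, was also higher at this limit, which 5.63% of all probes then met. Its log2 fold change was 0.71 (limma, unadjusted p = 0.0473, adjusted p = 0.883), against 0.12 with all arrays (limma, unadjusted p = 0.80). Lrat had its highest value, 7.08, in the omitted array. Acta2, Des and Col3a1 differed by 0.18, 0.13 and -0.029 without that array. Tea replicate 3 was the lowest tea array for 0 of 3 neutrophil, 1 of 5 erythroid, 1 of 2 endothelial, 3 of 5 stellate cell, 2 of 3 cholangiocyte and 2 of 8 hepatocyte markers. Only 1 of the 3 neutrophil and 2 of the 3 cholangiocyte markers had a mean above the median of all probe means. The neutrophil markers S100a8 and Mmp8, at 4.41 to 5.21 and 4.35 to 5.71, read near the random-sequence control row. The order of the arrays in such dim markers says little about the cells. The part of these cells in the proteasome values was not tested. In whole liver, fewer cells of a type and less RNA per cell cannot be told apart.

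In the alpha rings of the core particle, 4 of 6 measured genes had a higher mean with tea and 2 a lower one, and the median log2 fold change was 0.20. Without control replicate 1 the median was -0.11, and 5 of the 6 were lower. Psma5 read 10.35, 10.00 and 9.14 in tea livers, against 7.91, 9.54 and 9.61 in control livers. The groups overlapped, since tea replicate 3 lay below control replicates 2 and 3. Its log2 fold change was 0.81 ± 0.50 (SE; limma, adjusted p = 0.949) and 0.25 without control replicate 1. Psma7 read 11.33, 11.35 and 10.73 in tea livers and 9.37, 10.90 and 11.53 in control livers. Control replicate 3 was above every tea liver, and the log2 fold change of 0.54 ± 0.50 (SE) became -0.078 without control replicate 1. Psma6 had the same low control, at 10.67 against 12.07 and 12.15 in control replicates 2 and 3, while tea livers read 12.43, 12.00 and 11.58. Its log2 fold change was 0.37, and -0.11 without control replicate 1. Psma1, Psma2 and Psma4 differed by -0.17, 0.032 and -0.073, and by -0.11, -0.13 and -0.22 without control replicate 1.

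In the constitutive beta rings, 5 of 6 measured genes had a lower mean with tea, with a median of -0.15, and all 6 were lower without control replicate 1, with a median of -0.31. Psmb1, a beta subunit without a cutting site of its own, read 7.85, 7.95 and 6.91 in tea livers and 8.67, 8.10 and 8.65 in control livers. Every tea liver lay below every control liver. Means were 7.57 ± 0.57 with tea and 8.47 ± 0.33 in controls (SD, n = 3 each). The log2 fold change of -0.90 ± 0.36 (SE) had an unadjusted p of 0.0313 and an adjusted p of 0.949 by limma. It was -0.80 without control replicate 1 and -0.57 without tea replicate 3, and leaving out control replicate 3 or tea replicate 3 took its unadjusted p past 0.05. With 3 arrays against 3, an exact permutation test cannot give a two-sided p below 0.1.

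The measured genes for constitutive catalytic subunits had no call. Psmb6, which encodes the caspase-like subunit, read 6.75, 6.10 and 5.90 in tea livers and 6.34, 6.42 and 6.85 in control livers. Psmb7, which encodes the trypsin-like subunit, read 11.30, 11.38 and 10.81 in tea livers, against 11.37, 11.09 and 11.44 in control livers. For both, tea replicate 3 was the lowest array and the groups overlapped. Their log2 fold changes were -0.29, with a 95% interval of -1.03 to 0.46, and -0.13, with an interval of -0.81 to 0.54. They were -0.38 and -0.099 without control replicate 1. Psmb4 differed by -0.16, and its groups no longer overlapped once control replicate 1 was omitted, at -0.64. Psmb2 and Psmb3 differed by -0.15 and 0.021, and by -0.23 and -0.070 without that array.

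The immunoproteasome genes Psmb8, Psmb9 and Psmb10 encode the interferon-induced subunits that take the places of Psmb5, Psmb6 and Psmb7. All 3 had a lower mean with tea, with a median of -0.22, and of -0.36 without control replicate 1. Psmb8 read 7.50, 6.17 and 6.88 in tea livers and 7.07, 7.52 and 6.92 in control livers. The lowest value was in tea replicate 2 and the groups overlapped, with a log2 fold change of -0.31 ± 0.38 (SE). It was -0.36 without control replicate 1. Psmb9 read 7.61, 7.03 and 6.25 in tea livers and 6.04, 7.88 and 7.63 in control livers. Control replicate 1 was the lowest of all, while the other 2 controls lay above every tea liver. The log2 fold change of Psmb9 was -0.22 ± 0.51 (SE), and -0.79 ± 0.38 without control replicate 1, with an adjusted p of 0.885 by limma. Psmb10 read 6.90, 6.53 and 6.63 in tea livers and 6.38, 6.69 and 7.19 in control livers, a log2 fold change of -0.069 ± 0.32 (SE), and -0.26 without control replicate 1.

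**Figure D4:**
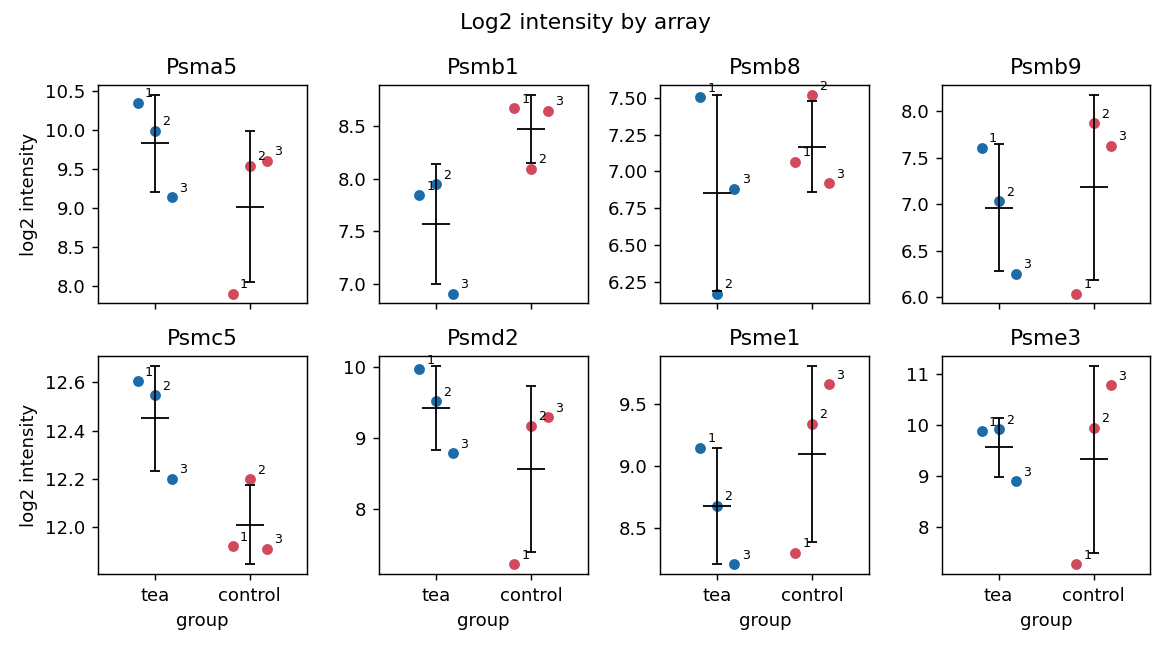
Log2 intensity of 8 proteasome genes in tea (blue) and control (red) livers. Each point is an array marked with its replicate number, and the bars show the mean ± SD of 3 arrays. Psmb1 is lower in each tea liver than in each control liver, while Psma5, Psmd2 and Psme3 have 1 low control, replicate 1.

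In the GRCr8 annotation Psmb8 and Psmb9 are separated only by Tap1, which encodes a chain of the peptide transporter of MHC class I, and Psme1 and Psme2 only by Emc9. Promoters from RefSeq (GRCr8), 250 bases before to 50 after the gene start, were held for 28 of the 31 genes. CCAAT, the box bound by nuclear factor Y, was searched on both strands and occurred in 16 of the 28 and in 37.5% of 33469 promoters of the same length. TGACNNNGC, a core of the antioxidant response element through which Nfe2l1 and Nfe2l2 act, occurred in 5 of the 28, namely Psmb2, Psmb6, Psmd1, Psmd3 and Psmd9, and in 12.1% of all. Matches of different motifs overlapped in 1 of the 28 promoters. A match is a description of the letters only.
The promoters of 3 members are shown, namely Psmb1, Psmd9 and Psme3. Psmb1 is the gene with the smallest p, and Psme3 the one with the widest range over the arrays. Psmd9, like Psmb2, holds both motifs. Capitals mark CCAAT or TGACNNNGC on either strand. Their places are chr1:65134721-65135020, minus strand, for Psmb1, chr12:39018215-39018514, minus strand, for Psmd9 and chr10:86757683-86757982, plus strand, for Psme3, and each is written 5′ to 3′ along its gene.
Psmb1: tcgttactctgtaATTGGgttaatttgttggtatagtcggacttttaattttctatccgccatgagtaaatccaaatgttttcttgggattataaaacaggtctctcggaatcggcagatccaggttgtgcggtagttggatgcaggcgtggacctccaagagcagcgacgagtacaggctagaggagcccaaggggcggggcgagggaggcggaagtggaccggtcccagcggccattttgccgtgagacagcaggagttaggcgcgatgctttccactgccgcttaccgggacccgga
Psmd9: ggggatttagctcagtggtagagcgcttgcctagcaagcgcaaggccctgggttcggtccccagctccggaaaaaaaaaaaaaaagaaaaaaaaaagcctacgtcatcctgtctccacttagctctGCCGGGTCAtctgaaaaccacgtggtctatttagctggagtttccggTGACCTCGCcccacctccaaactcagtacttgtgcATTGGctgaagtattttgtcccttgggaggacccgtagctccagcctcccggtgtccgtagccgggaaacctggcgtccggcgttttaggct
Psme3: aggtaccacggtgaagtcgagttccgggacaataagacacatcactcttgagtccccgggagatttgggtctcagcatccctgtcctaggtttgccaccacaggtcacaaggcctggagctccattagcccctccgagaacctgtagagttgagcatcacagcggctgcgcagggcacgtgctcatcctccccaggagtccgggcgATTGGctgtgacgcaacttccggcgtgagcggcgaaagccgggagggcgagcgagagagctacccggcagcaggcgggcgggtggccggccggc
Psmd9 has 1 match of CCAAT and 2 of TGACNNNGC, and Psmb1 and Psme3 each have 1 of CCAAT and 0 of TGACNNNGC.

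In the ATPase ring of the regulatory particle, 3 of 5 measured genes had a higher mean with tea and 2 a lower one, with a median of 0.093, or 0.0044 without control replicate 1. Control replicate 1 was the lowest of all 6 arrays for 0 of these 5 genes. Psmc5 read 12.61, 12.55 and 12.20 in tea livers and 11.92, 12.20 and 11.91 in control livers. Each tea liver lay above each control, though tea replicate 3 and control replicate 2 differed only in the third decimal. Its log2 fold change was 0.44 ± 0.29 (SE; limma, adjusted p = 0.949), 0.40 without control replicate 1, and between 0.37 and 0.57 when any 1 array was omitted. Psmc2 read 11.76, 11.88 and 11.54 in tea livers, against 11.67, 12.00 and 12.59 in control livers. The groups overlapped through control replicate 1, and the log2 fold change was -0.36 ± 0.33 (SE), and -0.57 without it. Psmc1, Psmc3 and Psmc4 differed by 0.11, 0.093 and -0.00039, and the interval for Psmc4 ran from -0.65 to 0.65. They differed by 0.0044, 0.31 and -0.066 without control replicate 1.

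Among the non-ATPase subunits of the regulatory particle, 3 of 6 measured genes were higher and 3 lower in mean, with a median of 0.090, and 5 of 6 were lower without control replicate 1, with a median of -0.22. Psmd2, a scaffold of the base that docks ubiquitin shuttles, read 9.97, 9.52 and 8.79 in tea livers and 7.22, 9.18 and 9.30 in control livers. Control replicate 1 lay far below the rest, and tea replicate 3 was below the other 2 controls. The log2 fold change was 0.86 ± 0.54 (SE; limma, adjusted p = 0.949) and 0.19 without that control. Psmd12, a lid subunit, read 11.32, 11.52 and 10.68 in tea livers and 9.13, 11.54 and 11.45 in control livers. Its log2 fold change was 0.47 ± 0.58 (SE), and -0.32 without control replicate 1. Psmd4, a ubiquitin receptor, read 9.42, 9.62 and 9.10 in tea livers and 9.37, 9.36 and 9.75 in control livers, so that the groups overlapped with a log2 fold change of -0.11, and -0.17 without control replicate 1. Psmd1, Psmd3 and Psmd6 differed by -0.047, -0.18 and 0.23, and by -0.30, -0.26 and -0.12 without that array.

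The alternative caps were measured through 3 genes, and each had its highest value in control replicate 3. Psme1 and Psme2 encode the chains of the interferon-inducible activator. Psme1 read 9.15, 8.68 and 8.20 in tea livers and 8.30, 9.34 and 9.66 in control livers. Control replicate 1 lay among the tea values and the other controls lay above them. The log2 fold change of Psme1 was -0.42 ± 0.41 (SE), and -0.83 ± 0.35 without control replicate 1, with an unadjusted p of 0.0306 and an adjusted p of 0.848 by limma. Without that array 2 of the 31 genes, Psmb1 and Psme1, had an unadjusted p under 0.05, or 6.45%, both lower with tea, against 5.63% of all probes, of which 2.31% were higher and 3.32% lower. Psme2 read 11.12, 10.98 and 10.52 in tea livers and 10.78, 10.91 and 11.30 in control livers, a log2 fold change of -0.12 ± 0.31 (SE), and -0.23 without control replicate 1.

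Psme3, which encodes the nuclear activator that works without ubiquitin, had the widest range of the 31 genes. It read 9.88, 9.91 and 8.90 in tea livers and 7.28, 9.95 and 10.77 in control livers. Controls 2 and 3 lay above every tea liver, and control replicate 1 differed from the mean of the other 5 arrays by -2.60. The log2 fold change was 0.23 ± 0.74 (SE) with all arrays and -0.80 ± 0.38 without control replicate 1, with an adjusted p of 0.885 by limma. Its sign therefore turned with a single array. Without control replicate 1 the groups did not overlap for 7 of the 31 genes, or 22.6%, against 21.1% of all probes, of which 9.96% were higher and 11.1% lower. Those 7 were Psmb1, Psmb4, Psmb9, Psmc2, Psme1 and Psme3, all lower with tea, and Psmc5, higher.

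The assembly chaperones measured were Psmd9 and Psmd10, which help to build the base of the regulatory particle. Psmd9 read 6.15, 7.45 and 7.24 in tea livers and 8.01, 7.32 and 7.46 in control livers. The lowest value was in tea replicate 1 and the highest in control replicate 1, so this gene did not share the low arrays of most of the others. Its log2 fold change was -0.65 ± 0.40 (SE; limma, adjusted p = 0.949), and -0.45 without control replicate 1. Psmd10, which encodes gankyrin, read 8.43, 8.44 and 7.82 in tea livers and 8.09, 8.39 and 9.10 in control livers, a log2 fold change of -0.29 ± 0.36 (SE), and -0.51 without that array. The genes Psmc3ip, which acts in meiotic recombination, and Psme3ip1, a partner of the nuclear activator, differed by 0.18 and 0.31, and by 0.22 and 0.17 without it.

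Other genes of the ubiquitin-proteasome system were taken from a list of regulators, ubiquitin genes and shuttles, of which 24 were measured. By limma none had an adjusted p under 0.05 or an unadjusted p under 0.05 with all arrays, in either direction. Without control replicate 1, 7 of 9 regulators were lower, as were 11 of 15 genes for ubiquitin, its activation and shuttles. Of all probes 49.3% were lower in that setting, and of the brighter ones 54.1%. By limma 1 of the 24 genes then had an unadjusted p under 0.05, against 5.63% of all probes. That gene was Sqstm1, a ubiquitin-binding receptor of autophagy. Its log2 fold change without control replicate 1 was -0.84 (limma, unadjusted p = 0.0458, adjusted p = 0.883), against -0.42 ± 0.46 (SE) with all arrays. Sqstm1 had 2 probes, and its values are from the one with the higher mean. Nfe2l2, an activator of antioxidant and some proteasome genes, read 9.73, 10.21 and 9.07 in tea livers and 9.89, 10.25 and 10.33 in control livers, a log2 fold change of -0.49 ± 0.35 (SE), and -0.62 without control replicate 1. Usp14, a deubiquitinase bound to the regulatory particle, read 8.90, 8.98 and 7.83 in tea livers and 8.36, 8.92 and 9.12 in control livers, a log2 fold change of -0.23 ± 0.39 (SE), and -0.45 without that array. Both Nfe2l2 and Usp14 had their lowest of 6 values in tea replicate 3, as did 16 of the 31 proteasome genes. The same held for 16.4% of all probes and 19.4% of the brighter ones. Among the tea arrays, that replicate was the lowest for 5 of the 9 regulators, against 36.5% of all probes and 46.0% of the brighter ones. Nfe2l1 was not analysed here.

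The partners of the immunoproteasome in MHC class I presentation had no call either. Of 10 measured genes 5 were higher and 5 lower in mean with tea, with a median of -0.020. With all arrays 50.3% of all probes and 44.9% of the brighter ones were lower. Without control replicate 1, 9 of the 10 genes were lower, with a median of -0.33. In that setting 49.3% of all probes and 54.1% of the brighter ones were lower. None of the 10 genes had an unadjusted p under 0.05 by limma with all arrays or without control replicate 1. Tapbp, which tethers the class I molecule to the transporter, differed by -0.55 ± 0.35 (SE), and the class I gene RT1-A2 by -0.40 ± 0.28 (SE). They differed by -0.32 and -0.41 without control replicate 1. RT1-A2 is a close copy of RT1-A1 and other class I genes, whose RNA may bind the same oligonucleotides. RT1-A2 read 11.16, 11.02 and 11.07 in tea livers and 11.48, 11.65 and 11.33 in control livers, so that each tea liver lay below each control. The groups were apart in this direction for 5.54% of all probes. RT1-A1 read 11.35, 11.01 and 10.99 in tea livers and 10.97, 11.36 and 11.53 in control livers, so its groups overlapped through control replicate 1. Its log2 fold change was -0.17, and -0.33 without that array.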

How the data were processed

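Total RNA from rat liver was labelled with Cy3 following NimbleGen's procedure, per the labels' protocols, and gave 1 profile for each of 6 samples. The deposited table holds 1 intensity per transcript and array on a linear scale, made with RMA per the submitters' processing notes, its version and settings being not given in the sources used here. Since RMA equalises the distributions of arrays, a difference in total signal cannot be seen. Intensities were taken to log2 with no further scaling, and the 1 random control row was left out. Transcript identifiers without versions were matched to the GRCr8 reference table, which named 9747 of 26419 probes, 0 of them with several symbols. A gene with several probes was represented by the probe with the highest mean. All probes were fitted with limma 3.58.1 (R 4.3.3), with lmFit, eBayes and a two-sided test of tea against control, Benjamini-Hochberg adjustment and a threshold of 0.05. The procedure was also run on simulated data with the same spread for every probe and array. That run held no array unlike the rest, so it does not cover the effect of control replicate 1. Intervals are limma's at 95%.

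The members and lists were chosen with earlier results of these data known. Genes given in full were the 2 members with the smallest p in each role class and a fixed set, of which 6 were not analysed here. For the other lists of ubiquitin-proteasome and MHC class I genes, the 2 genes with the smallest p were given, except for one list whose genes by this rule are not reported here. Marker lists are given by counts, and Gzmb, Dcn, Lrat, S100a8, Mmp8, Sqstm1 and RT1-A1 were named after their values were seen. Alternatives were quantile normalization, median centring, a filter at the 25th percentile of probe means, array weights, eBayes with trend and robust, a block for the replicate number, averaging a gene's probes, Welch's test, an adjusted p under 0.1, and leaving out each array. Leaving out control replicate 1 and tea replicate 3 together was chosen after seeing the data.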

Additional observations from a re-analysis of the deposited data

How the results depend on the processing

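With each array left out in turn, the median log2 fold change ran from -0.11 to 0.41 for the alpha rings, from -0.31 to -0.017 for the constitutive beta rings, from -0.54 to 0.0094 for the immunoproteasome, from -0.057 to 0.25 for the ATPases, from -0.22 to 0.31 for the non-ATPase subunits, from -0.80 to 0.054 for the activators, from -0.65 to -0.32 for the assembly chaperones and from -0.23 to 0.068 for all 31 genes. The number of the 31 genes at an unadjusted p under 0.05 and lower with tea ran from 0 to 2 in these omissions, and was 0 without tea replicate 3 or control replicate 3, and 0 without control replicate 1 and tea replicate 3 together. For the other ubiquitin-proteasome genes the numbers higher and lower each ran from 0 to 1, and for all probes the number ran from 586 to 1567, with 0 to 6 past the correction, and 6 without control replicate 1 and tea replicate 3 together. Among the 18 proteasome genes chosen by rule to be given in full, ranges that crossed 0 were -0.078 to 1.001 for Psma7, -0.26 to 0.15 for Psmb10, -0.24 to 0.041 for Psmb7, -0.64 to 0.026 for Psmb8, -0.79 to 0.14 for Psmb9, -0.32 to 0.88 for Psmd12, -0.23 to 0.031 for Psmd4, -0.24 to 0.054 for Psme2 and -0.80 to 0.95 for Psme3. Genes outside this set crossed 0 too, such as Psma6 at -0.11 to 0.63 and Psmb4 at -0.64 to 0.28. With array weights, which gave tea replicate 2 a weight of 4.50 and control replicate 1 one of 0.253, the log2 fold change was 0.086 for Psmb7, 0.059 for Psmd4 and -0.19 for Psme3, the chaperone median was -0.18, 2 of the 31 genes and 3363 of all probes had an unadjusted p under 0.05, 27 probes passed the correction, and 1 other ubiquitin-proteasome gene was higher, as also after quantile normalization. Without control replicate 1 and tea replicate 3 together the log2 fold change of Psmb7 was 0.077. The cause was not tested. Same-numbered arrays did not deviate together (correlations of -0.22, 0.013 and -0.25 over probes), and with the replicate number as a block 0 of the 31 genes had an unadjusted p under 0.05 and 0 probes passed the correction. By Welch's test both counts were 0 as well. No named proteasome gene passed the correction in the limma alternatives.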

Other observations

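Psmb3 was the single constitutive beta gene with its highest value in tea replicate 3, at 6.60, 7.12 and 7.61 in tea livers and 6.91, 7.25 and 7.11 in control livers, where the other 5 measured constitutive beta genes had their lowest tea value in that replicate. B2m, which encodes the invariant chain of MHC class I, read 14.56, 14.40 and 13.95 in tea livers and 12.48, 14.54 and 14.81 in control livers, so that control replicate 1 was low for it too. Sqstm1 read 11.64, 11.81 and 11.00 in tea livers and 11.06, 11.75 and 12.91 in control livers, with its highest value in control replicate 3, the array that was highest for 16 of the 31 proteasome genes. All 3 were chosen after their values were seen.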
